A study of Mus musculus with 14 samples.

Results

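The transcripts of 9 genes of intestinal sugar handling were followed in RNA sequencing of mouse small intestinal organoids, out of 18781 genes in the deposited table and 12802 that were abundant enough to be tested. The genes are the sugar transporters Slc5a1, Slc5a11, Slc2a5 and Slc2a2, the fructose kinase Khk, and the gluconeogenic genes Pck1, Fbp1, G6pc and Slc37a4. They were selected by symbol, partly because G6pc and Slc5a11 were among the largest rises in Rnaseh2b-deficient organoids against WT, so the values of that contrast are given as a description without a test. Organoids are epithelial cultures grown from intestinal stem cells. The WT cultures (n = 4, genotype ATG16L1flox/flox_RNaseH2Bflox/flox) carried loxP-flanked alleles of both genes and no Cre. The Atg16l1ΔIEC cultures (n = 4) were ATG16L1flox/flox_VillinCre+/-, the Rnaseh2bΔIEC cultures (n = 2) were RNaseH2Bflox/flox_VillinCre+/-, and the Atg16l1/Rnaseh2bΔIEC cultures (n = 4) carried both floxed alleles with VillinCre+/-. Villin-Cre deletes floxed alleles in intestinal epithelial cells, ATG16L1 is an autophagy protein and RNASEH2B is a subunit of the enzyme that removes ribonucleotides from DNA. The cultures received no treatment named in the labels, the age of the donor mice was not given, and nothing states whether replicates came from separate mice. The p-values below therefore measure the spread between libraries, which may be technical.

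Absorptive enterocytes take up glucose and galactose at the brush border through the sodium-coupled carrier SGLT1 and fructose through GLUT5, and release sugars toward the blood through GLUT2. Fructose is phosphorylated by ketohexokinase, cleaved and passed into the triose pool, from which the small intestine can form glucose. The last gluconeogenic steps run through phosphoenolpyruvate carboxykinase, fructose-1,6-bisphosphatase, the glucose-6-phosphate transporter of the endoplasmic reticulum and glucose-6-phosphatase.

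Promoter sequence is shown for 5 of the genes, those with the largest differences of Rnaseh2bΔIEC from WT (G6pc and Slc5a11) and of Atg16l1/Rnaseh2bΔIEC from Atg16l1ΔIEC (Fbp1), the main glucose carrier Slc5a1, and Pck1. The sequences are RefSeq promoter windows of assembly GRCm38.p6, written 5′ to 3′ on the gene's strand and cut so that they end before the gene start of both RefSeq and GENCODE. They cover chr11:101367466-101367560 (+ strand) for G6pc, chr7:123214616-123214779 (+ strand) for Slc5a11, chr5:33103969-33104218 (+ strand) for Slc5a1, chr2:173152823-173153047 (+ strand) for Pck1 and chr13:62888283-62888532 (- strand) for Fbp1. Capitals mark exact matches, on either strand, to 1 of 7 short motifs.
G6pc: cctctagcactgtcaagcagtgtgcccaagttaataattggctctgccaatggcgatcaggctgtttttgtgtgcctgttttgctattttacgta
Slc5a11: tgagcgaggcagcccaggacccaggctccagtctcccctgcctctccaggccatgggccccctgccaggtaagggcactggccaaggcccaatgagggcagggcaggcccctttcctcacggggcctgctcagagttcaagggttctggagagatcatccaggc
Slc5a1: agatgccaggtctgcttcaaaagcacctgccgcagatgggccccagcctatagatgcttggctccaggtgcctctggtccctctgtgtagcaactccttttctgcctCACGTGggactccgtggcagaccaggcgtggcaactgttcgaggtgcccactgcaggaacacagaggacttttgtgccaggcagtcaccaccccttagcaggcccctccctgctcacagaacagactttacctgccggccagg
Pck1: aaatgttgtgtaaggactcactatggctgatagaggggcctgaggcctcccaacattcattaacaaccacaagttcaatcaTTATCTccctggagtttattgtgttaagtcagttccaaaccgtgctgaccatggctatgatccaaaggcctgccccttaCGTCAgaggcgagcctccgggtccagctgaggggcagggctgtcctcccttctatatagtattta
Fbp1: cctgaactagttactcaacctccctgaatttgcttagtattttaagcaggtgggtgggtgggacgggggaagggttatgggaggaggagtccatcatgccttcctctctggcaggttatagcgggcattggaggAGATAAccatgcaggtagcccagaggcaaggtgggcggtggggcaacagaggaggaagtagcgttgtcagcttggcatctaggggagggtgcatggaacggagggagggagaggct

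The Slc5a11 window held no searched motif. The match in G6pc, a TATA box (TATAAA), began 29 bases before the RefSeq start, past the stretch shown. In Pck1 the capitals are a GATA motif (AGATAA) at 169 bases and the core of a cyclic AMP response element (TGACG) at 90 bases before the start, both on the opposite strand. Slc5a1 held an E box (CACGTG) at 143 bases, and Fbp1 held a GATA motif at 116 bases. The Khk window, not printed, held an E box at 71 bases, overlapping a TGACG match at 74 bases. With 1 window for each of the 9 genes, CACGTG was found in 2, against 7.2% of the 32544 mouse windows of the same 300 bases. AGATAA was found in 2 (11.2% of all windows), TGACG in 3 (20.9%), the HNF4 core CAAAGT in 1 (14.4%) and TATAAA in 1 (13.6%). The CDX motif TTTATG (11.9% of all windows) and the FOXO motif TGTTTAC (3.7%) were found in 0 of the 9. A match describes letters in a window and not a bound site.

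The deposited values are on a log2 scale, after a transformation that is not named and that compresses differences of low genes. A difference of 1 is thus about a doubling for abundant genes and understates the change of low ones. The reads per library are unknown because no counts were used here. Atg16l1 was at 9.43 to 9.54 in WT, 6.73 to 7.35 in Atg16l1ΔIEC, 9.52 to 9.53 in Rnaseh2bΔIEC and 8.14 to 8.57 in Atg16l1/Rnaseh2bΔIEC libraries. Rnaseh2b was at 8.41 to 8.70, 8.48 to 8.72, 7.15 to 7.21 and 7.68 to 7.92 in the same order. Each targeted transcript was thus lower than in WT in every library that should lack it, but the libraries labelled Atg16l1/Rnaseh2bΔIEC kept 1.46 more Atg16l1 than Atg16l1ΔIEC and 0.63 more Rnaseh2b than Rnaseh2bΔIEC (log2, limma adjusted p = 2.0e-05 and 0.00074). The library names place WT and Atg16l1/Rnaseh2bΔIEC libraries 3 and 4 on sequencing lane 1 and all others on lane 2. For Atg16l1ΔIEC or Rnaseh2bΔIEC against WT, genotype and lane cannot be told apart except through the Atg16l1/Rnaseh2bΔIEC libraries, which ran on both. Within each genotype of 4, libraries 1 and 2 deviated together, as did 3 and 4 (r of their deviations from the genotype mean between 0.41 and 0.86 over genes), and no label states whether such libraries share a culture. In Atg16l1/Rnaseh2bΔIEC these pairs are also the lanes, so lane and library pair cannot be told apart. All values with lane as a covariate rest on that split alone. The 7 epithelial markers were all abundant. Of the 5 hepatocyte markers in the table, 4 (among them Tat and Tdo2) were under the level needed for a test and Alb was above it. Of 6 immune markers 4 (Ptprc and Cd3e among them) were under that level and Lyz2 and Itgam were above it, and of the 4 fibroblast markers measured, 3 were under it and Vim was above it. Summed log2 levels of the immune list were 5.94 to 6.21 in WT, 6.07 to 6.19 in Atg16l1ΔIEC, 5.91 to 5.95 in Rnaseh2bΔIEC and 5.97 to 6.14 in Atg16l1/Rnaseh2bΔIEC, and those of the fibroblast list 7.48 to 8.02, 7.69 to 8.25, 7.85 to 7.90 and 8.0 to 8.14.

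In WT organoids the 9 transcripts covered a wide range. Per kilobase of exon, log2 WT levels were 12.19 for Khk, 12.10 for Slc5a1, 10.08 for Slc37a4, 9.63 for Fbp1, 8.74 for Slc2a2, 7.95 for Slc2a5, 6.93 for G6pc, 5.15 for Slc5a11 and 2.60 for Pck1. The first enzyme of fructolysis and the main glucose carrier thus headed the order, and Pck1, whose product makes phosphoenolpyruvate from oxaloacetate, closed it with values in the range where the transformation compresses differences. Khk and Slc5a1 differed per kilobase by less than the spread of either gene over the WT libraries (SD 0.30 and 0.23), while the other neighbours in this order were further apart than that. Fbp2, the muscle-type fructose-bisphosphatase gene, stood at 11.83, above Fbp1.

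Among the apical carriers, Slc5a1 (SGLT1, chr5:33104219-33162870 (+ strand), GRCm38) was the most abundant. Slc5a1 stood at 14.39, 14.27, 13.98 and 13.92 in WT libraries 1 to 4 and at 14.08, 13.87, 14.52 and 14.38 in Atg16l1ΔIEC libraries 1 to 4. The values of Slc5a1 were 14.59 and 14.78 in the Rnaseh2bΔIEC libraries and 13.62, 13.96, 13.52 and 13.54 in Atg16l1/Rnaseh2bΔIEC libraries 1 to 4. Both Rnaseh2bΔIEC libraries were above all others and the Atg16l1/Rnaseh2bΔIEC libraries were the lowest group, overlapping the lower WT and Atg16l1ΔIEC libraries. Reads of Slc5a1 can overlap Gm15936 on the same strand and 5033423K11Rik on the other. Slc5a11 stood at 6.78, 6.68, 6.50 and 6.48 in WT libraries 1 to 4 and at 6.84, 6.78, 7.54 and 7.19 in Atg16l1ΔIEC libraries 1 to 4. The values of Slc5a11 were 8.75 and 8.78 in the Rnaseh2bΔIEC libraries and 7.19, 7.46, 6.26 and 6.24 in Atg16l1/Rnaseh2bΔIEC libraries 1 to 4. Slc5a11 (chr7:123214780-123273253 (+ strand)) encodes SMIT2, a sodium-coupled carrier of inositol and glucose. Its Rnaseh2bΔIEC values lay more than 1 log2 unit above every other library, and the Atg16l1/Rnaseh2bΔIEC libraries split by lane, with those of lane 2 above those of lane 1.

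The fructose carrier Slc2a5 (GLUT5, chr4:150119283-150144169 (+ strand)) was higher in Atg16l1ΔIEC than in WT and higher again in Rnaseh2bΔIEC. Slc2a5 stood at 9.96, 9.80, 9.60 and 9.51 in WT libraries 1 to 4 and at 10.28, 10.13, 10.72 and 10.55 in Atg16l1ΔIEC libraries 1 to 4. The values of Slc2a5 were 11.20 and 11.12 in the Rnaseh2bΔIEC libraries and 10.13, 10.51, 9.61 and 9.59 in Atg16l1/Rnaseh2bΔIEC libraries 1 to 4. All Atg16l1ΔIEC libraries were above all WT libraries, and both Rnaseh2bΔIEC libraries were above all others. Slc2a2 stood at 11.80, 11.53, 10.90 and 10.85 in WT libraries 1 to 4 and at 11.41, 11.37, 12.17 and 11.97 in Atg16l1ΔIEC libraries 1 to 4. The values of Slc2a2 were 12.13 and 12.31 in the Rnaseh2bΔIEC libraries and 10.96, 11.58, 10.85 and 10.82 in Atg16l1/Rnaseh2bΔIEC libraries 1 to 4. Slc2a2 (GLUT2, chr3:28697903-28731359 (+ strand)), the basolateral hexose carrier, was highest in Rnaseh2bΔIEC, but Atg16l1ΔIEC library 3 lay between the 2 Rnaseh2bΔIEC values, and WT libraries 1 and 2 stood above 3 and 4. 1700112D23Rik overlaps Slc2a2 on the other strand. Khk stood at 13.34, 13.23, 12.75 and 12.81 in WT libraries 1 to 4 and at 13.40, 13.17, 13.76 and 13.66 in Atg16l1ΔIEC libraries 1 to 4. The values of Khk were 13.63 and 13.73 in the Rnaseh2bΔIEC libraries and 12.68, 13.05, 12.55 and 12.66 in Atg16l1/Rnaseh2bΔIEC libraries 1 to 4. Khk (ketohexokinase, chr5:30921431-30931248 (+ strand)) overlapped between Rnaseh2bΔIEC and Atg16l1ΔIEC, and every Atg16l1/Rnaseh2bΔIEC library was below every Atg16l1ΔIEC library.

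Of the gluconeogenic genes, Pck1 (cytosolic phosphoenolpyruvate carboxykinase, chr2:173153048-173159273 (+ strand)) was the lowest. Pck1 stood at 4.40, 4.30, 4.38 and 4.44 in WT libraries 1 to 4 and at 4.68, 4.73, 4.57 and 4.58 in Atg16l1ΔIEC libraries 1 to 4. The values of Pck1 were 5.09 and 5.04 in the Rnaseh2bΔIEC libraries and 4.49, 4.47, 4.43 and 4.41 in Atg16l1/Rnaseh2bΔIEC libraries 1 to 4. The 4 genotypes came in the order WT and Atg16l1/Rnaseh2bΔIEC, then Atg16l1ΔIEC, then Rnaseh2bΔIEC, and only WT and Atg16l1/Rnaseh2bΔIEC overlapped. Fbp1 stood at 10.57, 10.44, 10.26 and 10.32 in WT libraries 1 to 4 and at 10.40, 10.65, 11.30 and 10.92 in Atg16l1ΔIEC libraries 1 to 4. The values of Fbp1 were 11.22 and 11.53 in the Rnaseh2bΔIEC libraries and 9.61, 10.08, 9.46 and 9.61 in Atg16l1/Rnaseh2bΔIEC libraries 1 to 4. Fbp1 (fructose-1,6-bisphosphatase 1, chr13:62864753-62888282 (- strand)) was lower in every Atg16l1/Rnaseh2bΔIEC library than in any other library.

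G6pc stood at 8.49, 8.43, 7.97 and 7.90 in WT libraries 1 to 4 and at 8.78, 8.62, 9.53 and 9.23 in Atg16l1ΔIEC libraries 1 to 4. The values of G6pc were 10.34 and 10.37 in the Rnaseh2bΔIEC libraries and 8.40, 8.69, 7.79 and 7.71 in Atg16l1/Rnaseh2bΔIEC libraries 1 to 4. G6pc (glucose-6-phosphatase catalytic subunit, chr11:101367561-101377903 (+ strand)) was highest in both Rnaseh2bΔIEC libraries, and all Atg16l1ΔIEC libraries were above all WT libraries. Slc37a4 stood at 11.76, 11.76, 11.43 and 11.45 in WT libraries 1 to 4 and at 11.71, 11.57, 11.96 and 11.93 in Atg16l1ΔIEC libraries 1 to 4. The values of Slc37a4 were 11.76 and 11.81 in the Rnaseh2bΔIEC libraries and 11.27, 11.42, 11.29 and 11.34 in Atg16l1/Rnaseh2bΔIEC libraries 1 to 4. Slc37a4, which encodes the transporter that feeds glucose 6-phosphate to this enzyme (chr9:44396852-44402968 (+ strand), with Mir7085 on the same strand), did not share the Rnaseh2bΔIEC pattern. Its Rnaseh2bΔIEC values lay inside the Atg16l1ΔIEC range, they were close to the values of WT libraries 1 and 2, and the Atg16l1/Rnaseh2bΔIEC libraries were below all others.

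**Figure D1:**
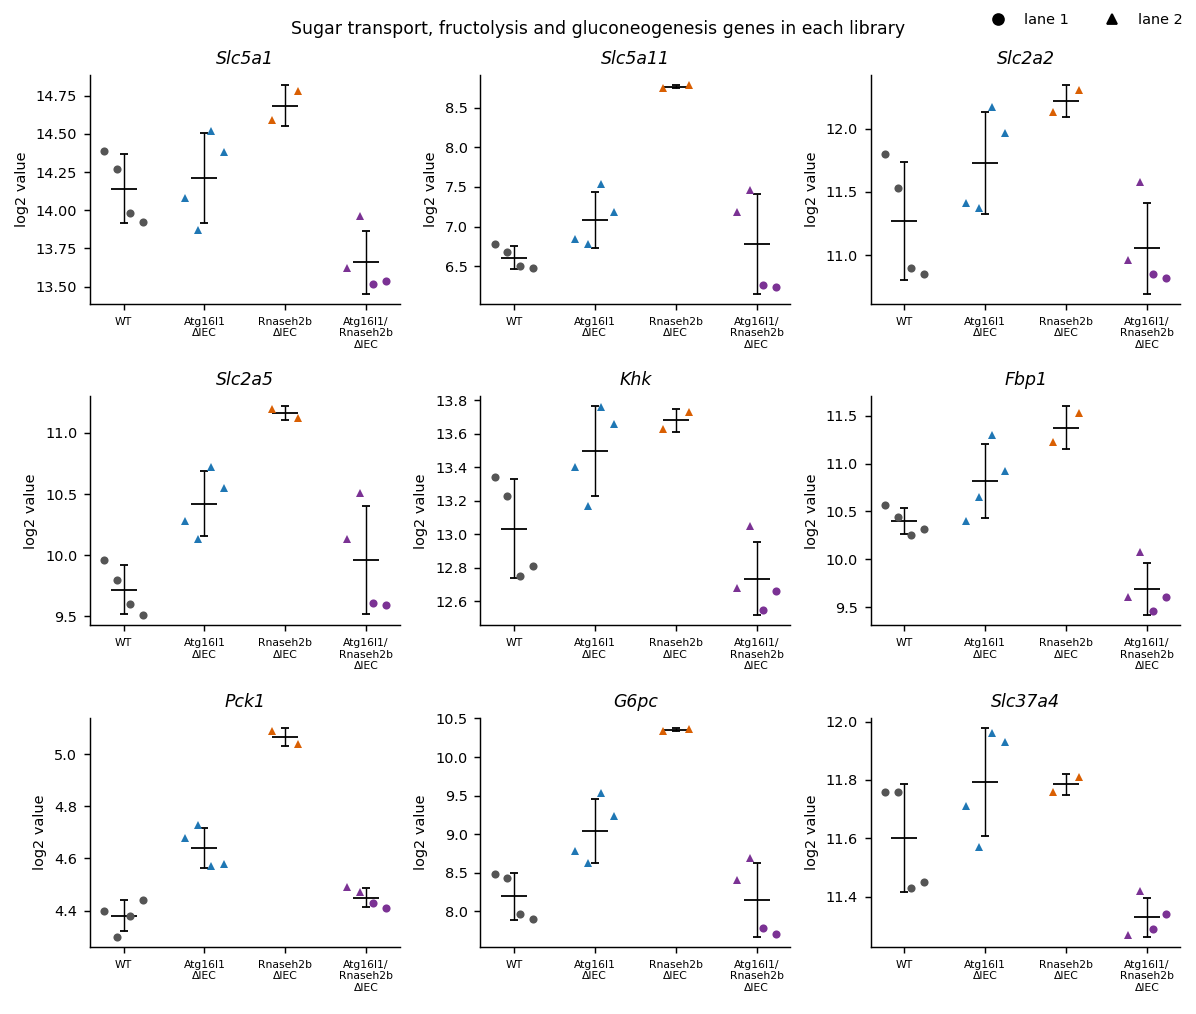
Deposited log2 value (y axis, a separate scale for each gene) of the 9 genes in 4 WT, 4 Atg16l1ΔIEC, 2 Rnaseh2bΔIEC and 4 Atg16l1/Rnaseh2bΔIEC libraries, each point a library, circles lane 1 and triangles lane 2, with the mean and SD as bars. G6pc and Slc5a11 stand apart in Rnaseh2bΔIEC (10.34 and 10.37; 8.75 and 8.78), whereas Slc37a4 does not (11.76 and 11.81).

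In the contrast that took part in choosing the genes, all 9 were higher in Rnaseh2bΔIEC than in WT, by a median of 0.95 on the log2 scale, against a median of 0.00 over all 12802 genes. Across those genes 14.4% were higher and 12.3% lower at an adjusted p under 0.05. G6pc differed by 2.16 (4.45-fold) and Slc5a11 by 2.15 (4.45-fold), the largest of the 9. Slc2a5 followed at 1.44, Fbp1 at 0.98, Slc2a2 at 0.95, Pck1 at 0.69, Khk at 0.65, Slc5a1 at 0.55 and Slc37a4 at 0.19. With lane as a covariate, the differences were 1.36 for G6pc, 1.08 for Slc5a11 and 0.63 for the median gene. Against Atg16l1ΔIEC on the same lane, where 4.34% of all genes were higher and 2.47% lower, the values were 1.67 for Slc5a11, 1.32 for G6pc, 0.74 for Slc2a5, 0.56 for Fbp1, 0.50 for Slc2a2, 0.48 for Slc5a1, 0.43 for Pck1, 0.18 for Khk and -0.01 for Slc37a4. These comparisons share the Rnaseh2bΔIEC libraries, and 2 libraries are the whole of that group.

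Enterocyte markers moved with this pattern. The mean log2 level of 10 enterocyte markers (among them Alpi, Sis and Lct) was 12.59 to 13.23 in WT, 12.85 to 13.48 in Atg16l1ΔIEC, 13.79 to 13.90 in Rnaseh2bΔIEC and 12.54 to 12.96 in Atg16l1/Rnaseh2bΔIEC libraries. Their summed level (log2) was 16.80 to 17.42, 16.89 to 17.64, 17.88 to 18.02 and 16.57 to 17.04 in that order, with 8 of 10 markers called higher and 0 lower in Rnaseh2bΔIEC than in WT, and none of the 10 at the floor. Of the other epithelial markers, 3 of 4 goblet, 2 of 4 stem cell and 2 of 3 tuft genes were lower and 0 higher in that contrast. Their summed levels were 15.50 to 16.06 in WT and 15.07 to 15.21 in Rnaseh2bΔIEC for goblet, 14.35 to 14.54 and 13.90 to 13.97 for stem cell and 8.61 to 8.89 and 8.37 to 8.44 for tuft genes. In bulk RNA, more enterocytes and more transcript per enterocyte cannot be told apart. Set against the marker mean of the same library, G6pc was still 1.18 and Slc5a11 1.17 higher in Rnaseh2bΔIEC than in WT, and Slc2a5 was 0.46 higher. Slc2a2 and Fbp1 moved as the markers did (-0.03 and 0.00). Khk (-0.33), Slc5a1 (-0.43) and Slc37a4 (-0.79) gained less than the markers. Pck1 was at -0.29, but the transformation understates its differences, so its gain cannot be ranked against that of the markers. The median over the 9 genes was -0.03. This scaling was chosen after the data were seen, and the part of enterocyte content in the result was not tested.

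**Figure D2:**
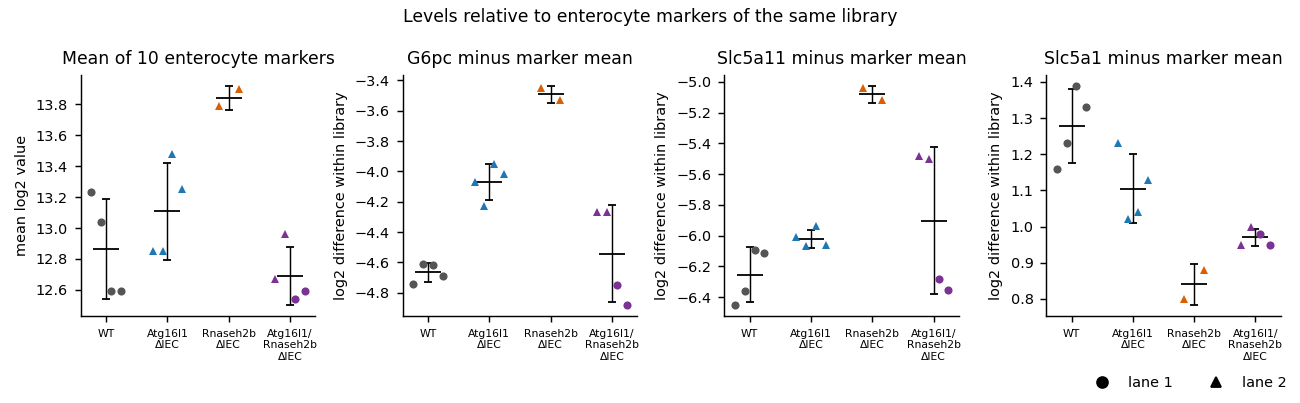
Mean log2 value of 10 enterocyte markers per library, and the log2 values of G6pc, Slc5a11 and Slc5a1 minus that mean, by genotype (points are libraries, circles lane 1, triangles lane 2, bars mean and SD). G6pc relative to the markers runs from -4.74 to -4.61 in WT and from -3.52 to -3.45 in Rnaseh2bΔIEC, while Slc5a1 relative to them is lower in Rnaseh2bΔIEC (0.81 to 0.89) than in WT (1.17 to 1.38).

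Whether Rnaseh2b deletion on top of Atg16l1 deletion changed these genes was asked in Atg16l1/Rnaseh2bΔIEC against Atg16l1ΔIEC, a comparison that shares no library with the one used for the choice. The Atg16l1/Rnaseh2bΔIEC libraries also kept 1.46 more Atg16l1, so Rnaseh2b loss and retained Atg16l1 cannot be told apart in this contrast. Here 6 of the 9 genes fell and 0 rose (8 lower and 0 higher at an unadjusted p under 0.05), against 12.5% of all tested genes lower and 12.6% higher, and the median difference was -0.55. With library pairs treated as correlated 3 of the 6 calls were lost (G6pc, Slc5a1 and Pck1, adjusted p = 0.067, 0.11 and 0.12 in limma with an estimated correlation, with 0.025 to 0.56 over the 9 genes). Fbp1 fell by 1.12 ± 0.17 (SE, n = 4 against 4, limma adjusted p = 0.00094) and Khk by 0.76 ± 0.15 (adjusted p = 0.0044). Slc37a4 fell by 0.47 ± 0.09 (adjusted p = 0.0039), G6pc by 0.89 ± 0.24 (adjusted p = 0.017), Slc5a1 by 0.55 ± 0.15 (adjusted p = 0.017) and Pck1 by 0.19 ± 0.04 (adjusted p = 0.0076). Slc2a2 differed by -0.68 (95% CI -1.20 to -0.16, adjusted p = 0.055) and Slc2a5 by -0.46 (-0.87 to -0.06, adjusted p = 0.086), neither past the threshold. Slc5a11 differed by -0.30 (-0.84 to 0.24, adjusted p = 0.39). For Fbp1, Khk, Slc37a4 and Pck1 no library of one genotype overlapped the other. How many of all tested genes separate in this way, in this contrast or in those below, was not counted.

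Within lane 2 alone (4 Atg16l1ΔIEC against Atg16l1/Rnaseh2bΔIEC libraries 1 and 2), the values were -0.97 for Fbp1, -0.63 for Khk, -0.45 for Slc37a4, -0.50 for G6pc, -0.42 for Slc5a1 and -0.16 for Pck1, and 3 genes, Fbp1, Khk and Slc37a4, stayed past the threshold. The same 3 stayed past it when libraries 1 and 2, and 3 and 4, of a genotype were treated as correlated, a setting that reduced the calls over all 12802 genes from 3218 to 478. When each such pair was averaged, limma called 0 of all genes and so 0 of the 9 (6 of 9 at an unadjusted p under 0.05). Slc5a11 turned to 0.24 within lane 2. Without Atg16l1ΔIEC library 3 or without library 4, Slc5a1 (-0.45 and -0.50) and G6pc (-0.73 and -0.83) missed the threshold. Slc2a2 passed it without Atg16l1ΔIEC library 1 or 2, Atg16l1/Rnaseh2bΔIEC library 2 or WT library 1 (-0.85 to -0.68), and Slc2a5 without Atg16l1/Rnaseh2bΔIEC library 2 (-0.65). Of the markers, 4 of 10 enterocyte genes were lower and 0 higher in Atg16l1/Rnaseh2bΔIEC. Called higher were 4 of 4 goblet, 4 of 5 Paneth, 3 of 4 stem cell and 2 of 3 enteroendocrine genes, with 0 lower. Among the genes of opposite sign in these lists were Alpi (0.44) and the stem cell gene Olfm4 (-0.28), neither past the threshold. The summed log2 level of the goblet list was 15.02 to 15.32 in Atg16l1ΔIEC and 15.97 to 16.18 in Atg16l1/Rnaseh2bΔIEC, that of the Paneth list 14.42 to 15.08 and 15.43 to 15.84, and that of the stem cell list 13.74 to 13.97 and 14.10 to 14.40. The enterocyte mean differed by -0.42, and relative to it the median of the 9 genes was -0.13. Fbp1 was at -0.70, G6pc at -0.47, Khk at -0.34, Slc2a2 at -0.26, Slc5a1 at -0.13, Slc37a4 at -0.05 and Slc2a5 at -0.04 relative to the markers. Slc5a11 (0.12) and Pck1 (0.23, with its own difference understated by the transformation) had the opposite sign. The part of cell composition in these falls was not tested.

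The question of Atg16l1 deletion alone was asked against WT, where 8.73% of all genes were higher and 10.4% lower. All WT libraries were shared with the contrast that chose G6pc and Slc5a11, so these are given as values, 0.84 for G6pc and 0.48 for Slc5a11, which became 0.05 and -0.60 with lane as a covariate. Of the other 7 genes, 2 rose and 0 fell (4 and 0 at an unadjusted p under 0.05). With library pairs treated as correlated, 1 (Pck1) was left, and Slc2a5 was lost (adjusted p = 0.10 in limma with an estimated correlation). Of the markers, 4 of 4 stem cell genes (median -0.68) and 3 of 4 goblet genes (median -0.59) were lower and 1 of 10 enterocyte genes was higher, with summed log2 levels of 14.35 to 14.54 in WT and 13.74 to 13.97 in Atg16l1ΔIEC for the stem cell list and 15.50 to 16.06 and 15.02 to 15.32 for the goblet list, and their part was not tested. Slc2a5 rose by 0.71 ± 0.19 (SE, n = 4 against 4, limma adjusted p = 0.019) and Pck1 by 0.26 ± 0.04 (adjusted p = 0.0014), without overlap between libraries. The mean of the 10 enterocyte markers differed by 0.25. Relative to it Slc2a5 was at 0.46 and Pck1, whose differences are understated, at 0.01. Khk differed by 0.47 (95% CI 0.13 to 0.80, adjusted p = 0.0503), Slc2a2 by 0.46 (-0.06 to 0.98), Fbp1 by 0.42 (0.05 to 0.79), Slc37a4 by 0.20 (0.00 to 0.39) and Slc5a1 by 0.07 (-0.24 to 0.39), none past the threshold. No lane held both genotypes. With lane as a covariate, Slc2a5 was at -0.01 and Pck1 at 0.20, and 0 of 7 genes passed (1 of 7 at an unadjusted p under 0.05), so the rise of Slc2a5 cannot be told apart from lane. Slc2a5 also missed the threshold without Atg16l1ΔIEC library 3 or 4 or WT library 3 or 4 (0.61 to 0.67). Khk passed it with a stricter filter (a linear mean of 50), with upper quartile scaling, or without Atg16l1ΔIEC library 2, Atg16l1/Rnaseh2bΔIEC library 2 or WT library 1 (0.47 to 0.57), and Fbp1 without Atg16l1ΔIEC library 1 (0.56).

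In Atg16l1/Rnaseh2bΔIEC against WT, where 8.1% of all genes were higher and 8.01% lower, 2 of the 7 genes fell and 0 rose (3 and 0 at an unadjusted p under 0.05). Fbp1 fell by 0.71 ± 0.17 (SE, n = 4 against 4, limma adjusted p = 0.016) and Slc5a1 by 0.48 ± 0.15 (adjusted p = 0.042). Within lane 1 (4 WT against Atg16l1/Rnaseh2bΔIEC libraries 3 and 4) the values were -0.86 for Fbp1 and -0.61 for Slc5a1. Slc5a1 missed the threshold when any of 7 libraries was left out (Atg16l1/Rnaseh2bΔIEC 1, 3 or 4, Rnaseh2bΔIEC 1 or 2, or WT 1 or 2), at -0.39 to -0.48, and Fbp1 without WT library 1 (-0.65), and neither passed when libraries 1 and 2, and 3 and 4, were treated as correlated. Slc37a4 differed by -0.27 (95% CI -0.47 to -0.07), Khk by -0.30 (-0.63 to 0.04), Slc2a2 by -0.22 (-0.74 to 0.30), Slc2a5 by 0.24 (-0.16 to 0.65) and Pck1 by 0.07 (-0.02 to 0.16), none past the threshold, though Slc37a4 passed it without Atg16l1ΔIEC library 2 or WT library 3 or 4 (-0.27 to -0.32). G6pc and Slc5a11, described without a test, were at -0.05 and 0.18, and at -0.45 and -0.36 within lane 1, where Slc2a5 was at -0.12. Against Rnaseh2bΔIEC, all 9 genes were lower in Atg16l1/Rnaseh2bΔIEC, with log2 differences of -2.21 for G6pc, -1.98 for Slc5a11, -1.68 for Fbp1, -1.20 for Slc2a5, -1.17 for Slc2a2, -1.03 for Slc5a1, -0.94 for Khk, -0.62 for Pck1 and -0.46 for Slc37a4, and the groups did not overlap for any of them. In that contrast 14.4% of all genes were lower and 11.1% higher, and how many of them separate without overlap was not counted. Since its Rnaseh2bΔIEC libraries chose the genes it is given without a test. Within lane 2 the values were -1.81 for G6pc, -1.44 for Slc5a11 and -0.90 for the median of the 9.

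**Figure D3:**
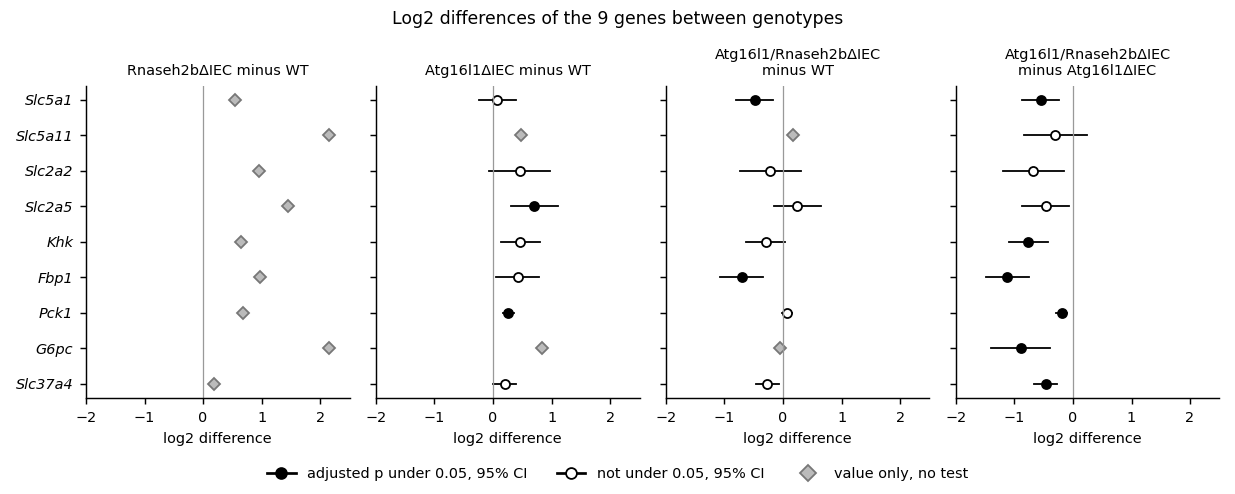
Log2 differences of the 9 genes (x axis) in 4 genotype comparisons, with 95% confidence intervals where the comparison was tested (filled circles, limma adjusted p under 0.05; open circles, not under it) and grey diamonds for values given without a test. In Atg16l1/Rnaseh2bΔIEC minus Atg16l1ΔIEC all points lie below 0, from -1.12 for Fbp1 to -0.19 for Pck1.

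The wider pathway was read from 67 further genes of sugar transport, fructose and polyol metabolism, gluconeogenesis, galactose and glycogen metabolism and their regulators, of which 54 were tested. In Rnaseh2bΔIEC against WT, 15 rose and 7 fell, beside the 14.4% of all genes that were higher and 12.3% lower. The total of 22 was 11 with lane as a covariate and 10 or 12 without one of the Rnaseh2bΔIEC libraries. Values of single genes below are without that covariate. They cannot be told apart from lane except through the Atg16l1/Rnaseh2bΔIEC libraries. Of the fructose and polyol genes 5 of 7 were higher and 0 lower. Tkfc, the triokinase that phosphorylates glyceraldehyde, rose by 0.71, Glyctk, a glycerate kinase, by 0.59 and Gpd1, cytosolic glycerol-3-phosphate dehydrogenase, by 0.96 (limma adjusted p between 0.00013 and 0.013). The mean of the 10 enterocyte markers was 0.98 higher in the same contrast, more than Tkfc, Glyctk or Gpd1. The part of enterocyte content in these rises was not tested. Of the transport genes 3 of 10 rose and 2 fell. Slc2a7 (GLUT7) rose by 1.17 and Slc5a4b, a relative of SGLT1, by 1.43. Both have close relatives in the genome, and how the counting treated reads that match several genes is not given. Slc2a1 (GLUT1), the carrier of basal glucose uptake, fell by 1.02. Among the regulators Creb3l3, a liver and intestine transcription factor, rose by 1.35 and Hnf4g by 0.55.

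In Atg16l1/Rnaseh2bΔIEC against Atg16l1ΔIEC, 15 of the 54 fell and 3 rose, beside 12.5% of all genes lower and 12.6% higher. Of the fructose and polyol genes 5 of 7 were called lower and 0 higher, and 2 lay above 0, at 0.04 or less. The mean of the 10 enterocyte markers differed by -0.42, and its part in these falls was not tested. Tkfc fell by 0.54 ± 0.15 (SE, limma adjusted p = 0.021), Gpd1 by 0.43, Sord (sorbitol dehydrogenase) by 0.30 and Glyctk by 0.30. With lane as a covariate Tkfc (-0.33), Gpd1 (-0.34) and Sord (-0.10) missed the threshold, and Glyctk (-0.27) stayed past it. The total of 18 calls was 20 within lane 2, 22 with lane as a covariate, 11 without Atg16l1ΔIEC library 3 and 4 with correlated library pairs. Of the 9 tested gluconeogenesis genes outside the main set, 0 fell and 0 rose (2, Fbp2 and Got2, passed an unadjusted p under 0.05), with differences between -0.18 and 0.17. Slc2a1 rose by 0.68 ± 0.12 (adjusted p = 0.0025) and Slc2a9, a urate and hexose carrier, fell by 0.38. Mlxipl (ChREBP), the carbohydrate-response factor, fell by 0.65, its partner Mlx by 0.20 and Hnf4g by 0.35, while Creb1 rose by 0.19. In galactose and glycogen metabolism Galm fell by 0.24, Galt by 0.18, Ugp2 by 0.13 and the branching enzyme gene Gbe1 by 0.37, and the glycogen synthase gene Gys1 rose by 0.23. Tas1r3, a sweet taste receptor subunit, fell by 0.15. With lane as a covariate, Galm (-0.16), Gys1 (0.08) and Hnf4g (-0.24) also missed the threshold. The other named calls stayed past it, with Slc2a1 at 0.39. Lane and library pair are the same split in Atg16l1/Rnaseh2bΔIEC, so this setting does not allow for correlated pairs. With those, 4 of the 18 calls were left, and which ones is not given here.

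In Atg16l1ΔIEC against WT, 7 of the 54 rose and 7 fell (3 in all with correlated library pairs), beside 8.73% and 10.4% of all genes. Slc5a4b rose by 0.65 but was at -0.08 with lane as a covariate. Tkfc rose by 0.49, Slc2a9 by 0.38, Gbe1 by 0.37 and Glyctk by 0.32. Slc2a1 fell by 0.87 ± 0.12 (limma adjusted p = 0.0005), Gys1 by 0.31 and Creb1 by 0.27. These values are without lane as a covariate. Genotype and lane cannot be told apart for them except through the Atg16l1/Rnaseh2bΔIEC libraries. In Atg16l1/Rnaseh2bΔIEC against WT, 2 of the 54 rose and 3 fell (0 with correlated library pairs, 5 at an unadjusted p under 0.05), beside 8.1% and 8.01% of all genes, and Slc2a1 was at -0.19 (95% CI -0.46 to 0.08), not past the threshold. In Rnaseh2bΔIEC against Atg16l1ΔIEC, 4 of the 54 rose and 2 fell, beside 4.34% and 2.47% of all genes, among them Slc2a7 at 0.79 and Glyctk at 0.28 (higher) and Gbe1 at -0.49 (lower). These 6 calls became 0 with correlated library pairs (10 at an unadjusted p under 0.05) and 0 without Rnaseh2bΔIEC library 1 or without library 2. Between Atg16l1/Rnaseh2bΔIEC and Rnaseh2bΔIEC, 20 of the 54 were lower and 7 higher, beside 14.4% and 11.1% of all genes, with 6 of 7 fructose and polyol genes lower, Creb3l3 at -1.51 and Slc2a1 at 0.83. This total of 27 was 8 with correlated library pairs, 15 when only the genotypes compared were fitted and 9 or 10 without one Rnaseh2bΔIEC library.

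**Figure D4:**
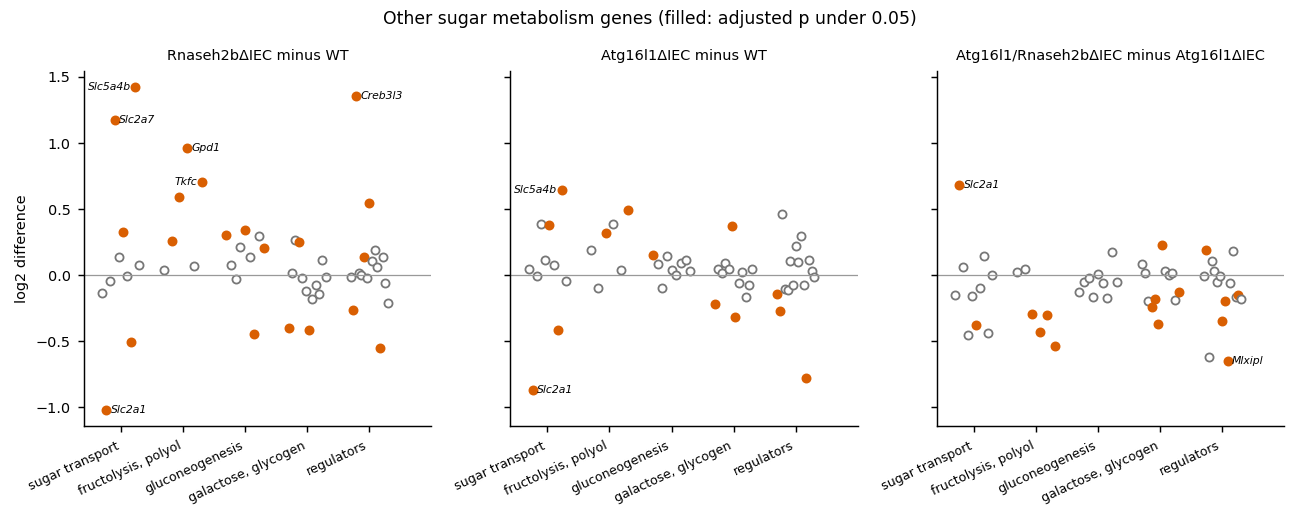
Log2 differences (y axis) of 52 of the 54 tested further sugar metabolism genes in 3 comparisons, grouped on the x axis by list, each point a gene and filled where the limma adjusted p was under 0.05. The 6 plotted fructose and polyol genes lie above 0 in Rnaseh2bΔIEC minus WT (4 called higher) and mostly below 0 in Atg16l1/Rnaseh2bΔIEC minus Atg16l1ΔIEC (4 called lower), with Slc2a1 on the other side in each.

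The transcripts most like G6pc over the 14 libraries, of 12801 compared, were Bbox1 (Pearson r = 0.987, and 0.985 after the genotype means were removed), Cndp2 (0.986 and 0.953), Hagh (0.984 and 0.920), Lpcat3 (0.984 and 0.971) and the neutral amino acid carrier Slc6a19 (0.979 and 0.949). Those most like Slc5a11 were 2010106E10Rik (0.989 and 0.976), Mlf2 (0.978 and 0.976), the enterocyte fatty acid binding protein gene Fabp2 (0.975 and 0.914), the peptide carrier Slc15a1 (0.974 and 0.934) and Lasp1 (0.974 and 0.889). The libraries share lanes and genotypes, and these correlations are given as a description.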

How the data were processed

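Total RNA of small intestinal organoids was sequenced from 14 libraries (4 WT, 4 Atg16l1ΔIEC, 2 Rnaseh2bΔIEC, 4 Atg16l1/Rnaseh2bΔIEC); the study left 2 further Rnaseh2bΔIEC samples out for their read counts. The authors prepared stranded mRNA libraries and ran cutadapt, then TopHat2 on GRCm38, then HTSeq, with DESeq2 for the analysis; versions and the strand setting are not given in the sources used here. The deposited table holds log2 values for 18781 genes (-2.13 to 17.45, 16.9% below 0). Its transformation is not named and reduces the spread of low genes (median SD between libraries 0.057 at means of 3 to 4, 0.151 at 6 to 7), so differences of Pck1 are understated and depth per library is unknown; precision rests on the number of libraries. Library medians lay between 7.57 and 7.65. All 14 columns were matched to samples by name, and symbols were found for 99.68% of genes (GENCODE M21).

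Genes with a mean of at least 3.32 (12802) were fitted in limma 3.58.1 (R 4.3.3; lmFit, contrasts.fit, eBayes with trend) on all 14 libraries with Benjamini-Hochberg adjustment, and an adjusted p under 0.05 was called. The script was checked on simulated data. Alternatives were the filter, a pseudocount, upper quartile scaling, lane, replicate blocks, correlated or averaged library pairs, only the genotypes compared, and leaving out each library. Library numbers did not pair genotypes (r of same-numbered deviations -0.50 to 0.44 over 18 pairs of libraries, 7 of them above 0.1). Named genes were the 9 genes, the targeted genes, further pathway genes called in Atg16l1/Rnaseh2bΔIEC against Atg16l1ΔIEC or differing by at least 1 anywhere, the 5 transcripts most like G6pc and Slc5a11, and at most 3 markers a list. The 9 genes and all lists were chosen with earlier results of these data known. RefSeq promoter windows (250 bases before to 50 after the start) were searched for 7 motifs on both strands, and no protein sequence was used. A pair of further genes that the rule would name, and a motif, are not reported here.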

Additional observations from a re-analysis of the deposited data

Results flagged for a closer look

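For Pck1, Fbp1, Khk and, by less than the printed decimals, Slc37a4, every Rnaseh2bΔIEC library was above every WT library while every Atg16l1/Rnaseh2bΔIEC library was below every Atg16l1ΔIEC library. How many of all tested genes separate in this way was not counted. The log2 difference of Atg16l1/Rnaseh2bΔIEC from Atg16l1ΔIEC minus that of Rnaseh2bΔIEC from WT was -0.88 for Pck1, -2.10 for Fbp1, -1.41 for Khk and -0.65 for Slc37a4. It was not tested for these genes, because Rnaseh2bΔIEC against WT took part in choosing them. For Slc37a4 the values behind it were 0.19 and -0.47. The Atg16l1/Rnaseh2bΔIEC libraries also kept more Atg16l1 and Rnaseh2b than the single deletions, and the part of this was not tested. No library of the 9 genes stood apart from its group by Dixon's criterion in the groups of 4. Libraries there deviated in pairs, so the criterion could rarely flag a single library, and nothing is concluded from it.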

How the results depend on the processing

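Counts below are genes past the threshold. With library pairs as a random effect (estimated correlation 0.645), Atg16l1/Rnaseh2bΔIEC against Atg16l1ΔIEC kept 3 calls of the 9 genes and 4 of the 54 further genes (from 6 and 18), Atg16l1ΔIEC against WT 1 and 3 (from 2 and 14), Atg16l1/Rnaseh2bΔIEC against WT 0 and 0 (from 2 and 5; 3 and 5 at an unadjusted p under 0.05), and the further genes numbered 11 in Rnaseh2bΔIEC against WT (from 22), 0 against Atg16l1ΔIEC (from 6; 10 unadjusted) and 8 in Atg16l1/Rnaseh2bΔIEC against Rnaseh2bΔIEC (from 27). With each pair averaged, limma called 0 in every such count. At an unadjusted p under 0.05 that setting left 6, 2 and 1 of the 9, 7 and 7 genes and, in the same order of comparisons as above, 13, 12, 5, 18, 7 and 18 of the further genes. Within lane, the 6 calls became 3. With lane as a covariate, Atg16l1ΔIEC against WT gave 0 of 7, and the further genes numbered 9, 11 and 13 in Atg16l1/Rnaseh2bΔIEC against WT, Rnaseh2bΔIEC against WT and Rnaseh2bΔIEC against Atg16l1ΔIEC. With a replicate block, calls were 1 of 7 in Atg16l1/Rnaseh2bΔIEC against WT (also 1 without the filter) and 1 further gene in Rnaseh2bΔIEC against Atg16l1ΔIEC, and no other count moved by over 1.5 times; the numbers do not pair genotypes. Fitting only the genotypes compared gave 15 of the 27.

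The median of the 9 genes in Rnaseh2bΔIEC against WT (0.95) was 0.63 with lane and -0.03 relative to the enterocyte markers. Against Atg16l1ΔIEC (0.50) it was -0.24 relative to them. In Atg16l1/Rnaseh2bΔIEC against Rnaseh2bΔIEC (-1.17) it was -0.90 with lane or within lane and -0.02 relative to the markers. Tested values of single genes that changed sign were Slc5a11 in Atg16l1/Rnaseh2bΔIEC against Atg16l1ΔIEC (0.24, lane or within lane), Slc5a1 (-0.19), Slc2a5 (-0.01) and Slc5a4b (-0.08) in Atg16l1ΔIEC against WT with lane, Slc5a1 there without Atg16l1ΔIEC library 3 (-0.03, in a range up to 0.19 over libraries left out), and Slc2a5 in Atg16l1/Rnaseh2bΔIEC against WT (-0.12, lane or within lane). Of the values given without a test, Slc5a11 changed sign with lane in Atg16l1ΔIEC against WT (-0.60) and in Atg16l1/Rnaseh2bΔIEC against WT (-0.36, and -0.05 without Atg16l1/Rnaseh2bΔIEC library 2). G6pc in the latter (up to 0.09) and Slc37a4 in Rnaseh2bΔIEC against Atg16l1ΔIEC (up to 0.05), both near 0, did so with 1 library left out. Relative to the enterocyte markers, Slc5a1 (-0.43), Slc2a2 (-0.03), Pck1 (-0.29), Khk (-0.33) and Slc37a4 (-0.79) did in Rnaseh2bΔIEC against WT, Slc5a1 (-0.26), Slc2a2 (-0.24), Pck1 (-0.31), Fbp1 (-0.17) and Khk (-0.55) against Atg16l1ΔIEC, and Slc5a1 (0.12), Pck1 (0.53), Khk (0.21) and Slc37a4 (0.69) in Atg16l1/Rnaseh2bΔIEC against Rnaseh2bΔIEC. Differences of Pck1 are understated by the transformation, which limits its values relative to the markers. The causes were not tested.

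Leaving out 1 library gave 4 to 8, 1 to 3 and 0 to 3 calls of the 9, 7 and 7 genes in the tested comparisons, and medians of 0.81 to 1.04, 0.41 to 0.64 and -1.35 to -1.08. Further genes ranged over 11 to 20 (11 without Atg16l1ΔIEC library 3), 10 to 17, 3 to 6 (3 without Atg16l1ΔIEC library 4 or WT library 1, 2 or 3), 10 to 24, 0 to 9 and 9 to 27. Without Rnaseh2bΔIEC library 1 or 2 the last 3 fell to 10 and 12, 0 and 0, and 9 and 10, and without Atg16l1ΔIEC library 1 or 2 the count of 6 became 3.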
